A study of Homo sapiens with 6 samples.

Results

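The genes that supply GDP-mannose and GDP-fucose, the donors that mannosyltransferases and fucosyltransferases use, were examined in HCT-15 cells with and without 5-aza-2'-deoxycytidine. The members were fixed by name, as 10 genes in pathway order from MPI to the Golgi importer of GDP-fucose. Of these, 9 had a probe set whose RefSeq transcript belonged to them, with 1 probe set each, among 1259 probe sets in all. FCSK, which phosphorylates free fucose, was not analysed here. HCT-15 is an established human colon cancer line, and 5-aza-2'-deoxycytidine is a nucleoside that traps DNA methyltransferases once it is incorporated during replication, so that methylation is lost as cells divide. RNA of this 1 line was hybridised to 6 arrays, 3 for untreated and 3 for treated cells. Untreated replicate 3 is called treated in its title, but its source name and treatment entry both say untreated, and these were followed. The titles of the 3 treated arrays also hold the word control, while their treatment entries say treated. The sources used here give neither dose nor duration. They do not say whether replicates were separate cultures, and p-values may therefore reflect technical spread alone.

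GDP-mannose is made in the cytosol from fructose phosphate or from free mannose. Mannose phosphate isomerase (MPI) links glycolysis to mannose phosphate, the phosphomannomutases PMM1 and PMM2 move the phosphate, and GDP-mannose pyrophosphorylase, with the catalytic subunit GMPPB and the regulatory subunit GMPPA, joins it to GDP. GMDS and GFUS then turn GDP-mannose into GDP-fucose, the de novo route. FPGT makes GDP-fucose from salvaged fucose phosphate, and SLC35C1 carries GDP-fucose into the Golgi, where it is used for glycans such as sialyl Lewis x, the selectin ligand that the submitters followed in these cells.

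All values are log2 values, 1 per probe set and array. Array medians lay between 5.81 and 5.92. Of the colon epithelial markers, 3 of 11 were on the array, with LGALS4 at a mean of 9.28, MUC13 at 8.45 and MUC2 at 5.62. The 4 leukocyte markers of 9 that were measured had mean levels of 3.09 to 5.86, and the 5 stromal and endothelial markers of 8 had 2.50 to 5.13. Their summed level (log2 of the sum of unlogged values) was 6.90 to 6.95 in untreated and 7.06 to 7.20 in treated cells for leukocyte markers, and 6.37 to 6.63 against 6.33 to 6.49 for stromal and endothelial ones. In each list 1 marker was higher and 1 lower by the limma test used for the members. MUC13 was 1.95-fold higher and LGALS4 1.42-fold lower. CD33 was 1.49-fold higher and CD22 1.19-fold lower, and PECAM1 was 1.23-fold higher and PDGFRB 1.4-fold lower. LUM (2.50), DCN (2.75) and SELE (2.92) were the dimmest. The part of the markers in the results was not tested. The number of arrays limits the precision, and in bulk RNA a change in the share of cells that express a gene and a change in RNA per cell cannot be told apart.

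Because the treatment acts on cytosine methylation, the bases upstream of the members that differed most are shown, with each CpG in capitals. The windows are the 250 bases before the annotated gene start from RefSeq (GRCh38.p14), on the gene's strand and written 5′ to 3′. They were examined for 8 of the 9 measured members, and GFUS was left out. GMDS lies on the minus strand of chromosome 6 (chr6:2245606-2245855, the outer of the table's 2 windows), MPI on the plus strand (chr15:74889792-74890041), FPGT on the plus strand (chr1:74197992-74198241) and GMPPB on the minus strand (chr3:49723952-49724201). GMDS, MPI and FPGT had the largest falls, and GMPPB is shown as the member with a mean above that of untreated cells.
GMDS: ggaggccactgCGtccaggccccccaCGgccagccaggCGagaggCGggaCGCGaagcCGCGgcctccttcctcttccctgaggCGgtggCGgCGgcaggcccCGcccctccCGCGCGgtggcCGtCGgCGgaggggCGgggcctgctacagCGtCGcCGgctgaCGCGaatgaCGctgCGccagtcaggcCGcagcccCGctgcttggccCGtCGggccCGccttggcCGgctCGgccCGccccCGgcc
MPI: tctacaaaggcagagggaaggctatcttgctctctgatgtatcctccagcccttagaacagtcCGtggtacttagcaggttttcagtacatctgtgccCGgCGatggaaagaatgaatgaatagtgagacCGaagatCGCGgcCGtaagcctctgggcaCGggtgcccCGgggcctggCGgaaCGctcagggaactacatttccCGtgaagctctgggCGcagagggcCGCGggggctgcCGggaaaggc
FPGT: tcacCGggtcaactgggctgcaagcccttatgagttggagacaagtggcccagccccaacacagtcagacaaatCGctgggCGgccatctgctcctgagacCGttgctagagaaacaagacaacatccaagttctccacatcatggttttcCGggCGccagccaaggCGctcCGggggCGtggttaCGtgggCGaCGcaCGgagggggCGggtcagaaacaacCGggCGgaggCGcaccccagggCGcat
GMPPB: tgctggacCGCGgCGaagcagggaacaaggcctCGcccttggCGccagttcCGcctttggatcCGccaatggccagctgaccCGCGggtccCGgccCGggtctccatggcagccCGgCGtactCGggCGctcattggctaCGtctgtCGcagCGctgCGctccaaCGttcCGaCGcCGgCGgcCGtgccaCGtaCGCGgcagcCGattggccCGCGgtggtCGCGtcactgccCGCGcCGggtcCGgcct

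The GMPPB window held 37 CpGs and the GMDS window 35, as many as or more than 96.7% and 95.1% of the 35116 windows in the table. FPGT had 18, MPI 16, PMM1 and GMPPA 17 each, PMM2 23 and SLC35C1 12 (the outermost of its 3 windows). The median over the 8 members was 17.5, beside 16 for the windows of genes on the array and 11 for all windows. The richest windows belonged to GMDS, the largest fall, and to GMPPB, which was not called. Whether CpG number goes with the change was not tested. The CpG number is a count of letters. Methylation was not measured in these files.

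The same 8 windows were searched on both strands for 4 promoter motifs. The shares given beside them again count every window of a gene. The GC box GGGCGG was found in 5 of 8 (PMM1, GMPPA, GMDS, FPGT and SLC35C1), beside 42.6% of all windows and 54.2% of the windows of genes on the array. The CCAAT box CCAAT was found in 2 (PMM1 and GMPPB), beside 32.0% and 29.1%. The E-box CACGTG was found in 1, GMPPA, beside 6.34% and 6.72%, and the TATA box TATAAA in 0 of 8, beside 10.7% and 11.2%. GGGCGG and CACGTG each contain a CpG, so both overlap the capitals. A match describes letters and shows no bound factor.

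Across the pathway, 7 of 9 members were lower in treated cells, 0 were higher and 2 were not called. The enzymes at the entry to the mannose branch and at the entry to the fucose branch showed the largest falls, MPI at 1.7-fold and GMDS at 1.78-fold lower, followed by the salvage enzyme FPGT at 1.49-fold and the transporter SLC35C1 at 1.46-fold. PMM1, PMM2 and GMPPA were 1.2-fold to 1.28-fold lower. A call is an adjusted p under 0.05 in limma's test, fitted to all 1259 probe sets with Benjamini-Hochberg adjustment. In that fit 16.8% of probe sets were lower, 18% higher and 34.8% called either way. No member was higher at an unadjusted p under 0.05 either (0 of 9). The members' median log2 change was -0.35, beside -0.01 over all probe sets. MPI and GMDS were called and lower by 1.5-fold or more (2 of 9), a class that held 5.48% of all probe sets. FPGT and SLC35C1 lay just short of it, and the count was 4 with arrays centred on their medians, 4 without untreated replicate 2 and 2 or 3 in the other alternative fits. With arrays centred on their medians, 197 probe sets were higher and 311 lower, against 227 and 211 as deposited, and the members lower were still 7. Without probe sets of a mean under 4.9, 192 of the 839 left were lower, with 6 members among them.

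**Figure D1:**
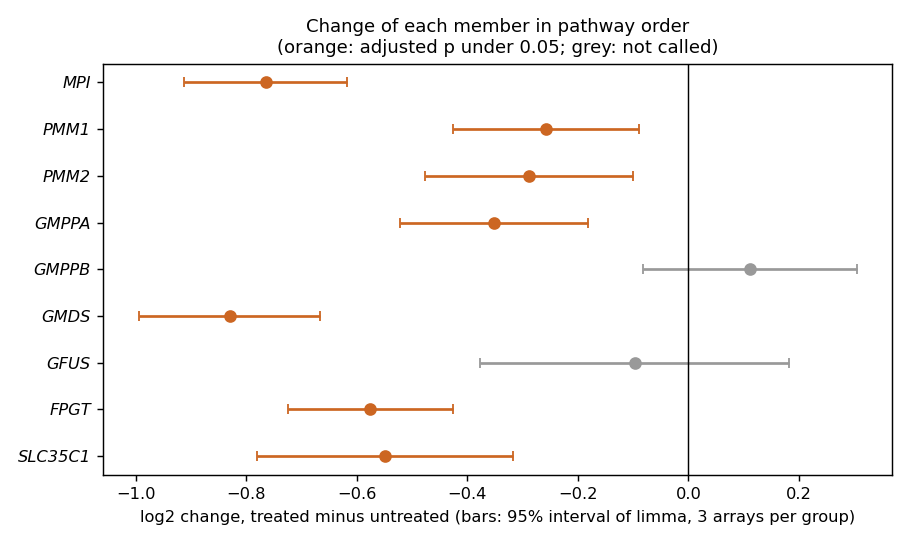
Log2 change (treated minus untreated) of the 9 measured members in pathway order from top to bottom, with 95% intervals from limma over 3 arrays per group; orange marks an adjusted p under 0.05. The 7 called members lie left of 0, from -0.83 for GMDS to -0.26 for PMM1, and the intervals of GMPPB and GFUS include 0.

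MPI, the isomerase that opens the route from fructose phosphate, read 8.66, 8.65 and 8.59 in untreated cells and 7.88, 7.88 and 7.84 in treated cells. The groups lay far apart against their spread (SD 0.041 and 0.019, n = 3 each). The log2 change was -0.76 ± 0.07 (SE), with an adjusted p = 7.51e-06 in limma's test. Its probe set name ends in a form that marks alternative transcripts of a gene, so the value may cover more than 1 MPI transcript.

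The 2 phosphomannomutases moved by similar, small amounts. PMM1 read 8.98, 8.997 and 8.84 in untreated and 8.67, 8.76 and 8.61 in treated cells, a log2 change of -0.26 ± 0.08 (SE, adjusted p = 0.0206 in limma's test). PMM2, whose loss causes the commonest congenital disorder of N-glycosylation, read 8.44, 8.42 and 8.30 against 8.08, 7.98 and 8.24 (-0.29 ± 0.08, adjusted p = 0.0206 in limma's test). The groups of both genes were separate but close: the highest treated PMM2 array lay just below the lowest untreated one. Neither call held with each array left out in turn. In limma's test the PMM1 call was lost when untreated replicate 1 was left out (adjusted p = 0.07), and likewise for untreated replicate 2 (0.0786), for treated replicate 1 (0.0669) and for treated replicate 3 (0.0598). The PMM2 call was lost when untreated replicate 1 was left out (0.0669), and likewise for untreated replicate 2 (0.072), for treated replicate 1 (0.0671) and for treated replicate 2 (0.0897). Over the alternative fits the adjusted p ran from 0.00903 to 0.0786 for PMM1 and from 0.00415 to 0.0897 for PMM2.

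Of the subunits of GDP-mannose pyrophosphorylase, GMPPA was called and GMPPB was not. GMPPA, the regulatory subunit, read 9.17, 9.08 and 9.08 in untreated and 8.64, 8.85 and 8.78 in treated cells, and fell by 0.35 ± 0.08 on the log2 scale (SE, adjusted p = 0.00423 in limma's test). GMPPB, the catalytic subunit, read 7.81, 7.91 and 7.91 against 7.99, 8.14 and 7.84. The GMPPB groups overlapped, since treated replicate 3 lay within the untreated range, and the change of 0.11 had a 95% interval of -0.08 to 0.30 (adjusted p = 0.389 in limma's test). The array-wise difference GMPPA minus GMPPB is unchanged by a constant shift of an array's log2 values, though not by every normalization. It was 1.36, 1.16 and 1.18 in untreated and 0.66, 0.70 and 0.95 in treated cells. These values did not overlap, and the difference of the changes was -0.46 ± 0.11 (SE). The exact two-sided permutation test gave p = 0.1, the smallest that 3 against 3 arrays allow, and 0.15 after adjustment over the 3 pairs compared in this way. This design cannot pass the threshold, and the pairs were chosen after their values were seen, so a difference between the subunits is not established. For PMM1 minus PMM2 the difference of the changes was 0.03 ± 0.12, with an exact permutation p = 0.7.

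**Figure D2:**
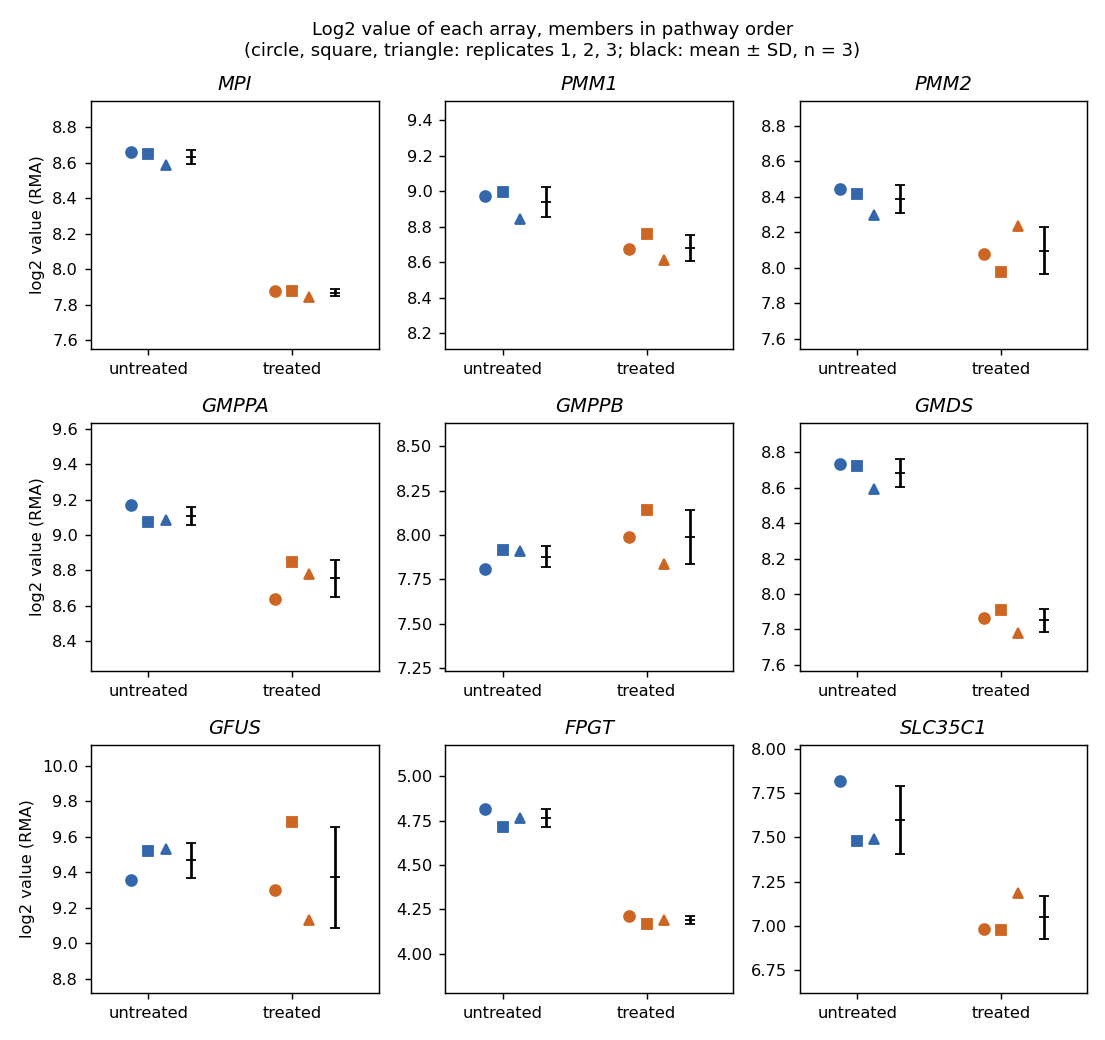
Log2 value (vertical axis, each panel spanning the same log2 range) of each of the 6 arrays for the 9 measured members, with untreated arrays in blue, treated arrays in orange and mean ± SD (n = 3) in black. The groups are separate in 7 panels and overlap for GMPPB and GFUS.

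Of the de novo enzymes of GDP-fucose, GMDS was called and GFUS was not. GMDS, the dehydratase that commits GDP-mannose to fucose, read 8.73, 8.72 and 8.59 in untreated and 7.86, 7.91 and 7.78 in treated cells. Every treated array was lower than every untreated one by a margin many times the spread (SD 0.078 and 0.063). The log2 change was -0.83 ± 0.07 (SE, adjusted p = 9.04e-06 in limma's test), and it ranked 27 among all 1259 probe sets by size of fall, with MPI at rank 34.

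GFUS, also named TSTA3, finishes GDP-fucose by epimerising and reducing the product of GMDS. It read 9.36, 9.52 and 9.53 in untreated and 9.30, 9.69 and 9.13 in treated cells. The treated arrays spread on both sides of the untreated ones, with the widest SD of any member group (0.28). The change of -0.10 had a 95% interval of -0.38 to 0.18 (adjusted p = 0.621 in limma's test), so a fall as large as that of GMDS lies outside it. Without treated replicate 3 the change was 0.02, and without treated replicate 2 it was -0.25 (adjusted p = 0.0729 in limma's test). GMDS minus GFUS was -0.63, -0.80 and -0.94 in untreated and -1.44, -1.78 and -1.35 in treated cells. These values did not overlap either, with a difference of the changes of -0.73 ± 0.16 (SE) and an exact permutation p = 0.1, again the smallest possible (0.15 adjusted over the 3 pairs), so this difference is not established either.

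In salvage, FPGT read 4.82, 4.71 and 4.77 in untreated and 4.21, 4.17 and 4.19 in treated cells. The replicates were tight (SD 0.051 and 0.022) and the log2 change was -0.58 ± 0.07 (SE, adjusted p = 6.3e-05 in limma's test). FPGT was the dimmest member: the share of probe sets no brighter than it was 26.9%, against 67.0% to 85.9% for the others. It was therefore not in the fit that left out dim probe sets, those with a mean under 4.9. The RefSeq table also lists FPGT-TNNI3K, a readthrough gene that shares sequence with FPGT, so the value is less certain for that reason.

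SLC35C1, the GDP-fucose transporter whose loss causes leukocyte adhesion deficiency with missing selectin ligands, read 7.82, 7.48 and 7.49 in untreated and 6.98, 6.98 and 7.19 in treated cells. Untreated replicate 1 stood above the other two, and the groups did not overlap. The log2 change was -0.55 ± 0.10 (SE, adjusted p = 0.00182 in limma's test), and -0.44 without untreated replicate 1, where it was still called.

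In 7 of 9 members the treated and untreated arrays did not overlap, all 7 with the treated arrays lower. Over all probe sets 46.1% did not overlap, and 23.4% did so with the treated arrays lower. From the largest fall to the highest change the order was GMDS, MPI, FPGT, SLC35C1, GMPPA, PMM2, PMM1, GFUS and GMPPB, and the 95% intervals of each pair of neighbours in it overlapped. Among the treated arrays, replicate 2 gave the highest value in 5 members, replicates 1 and 3 in 2 each.

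**Figure D3:**
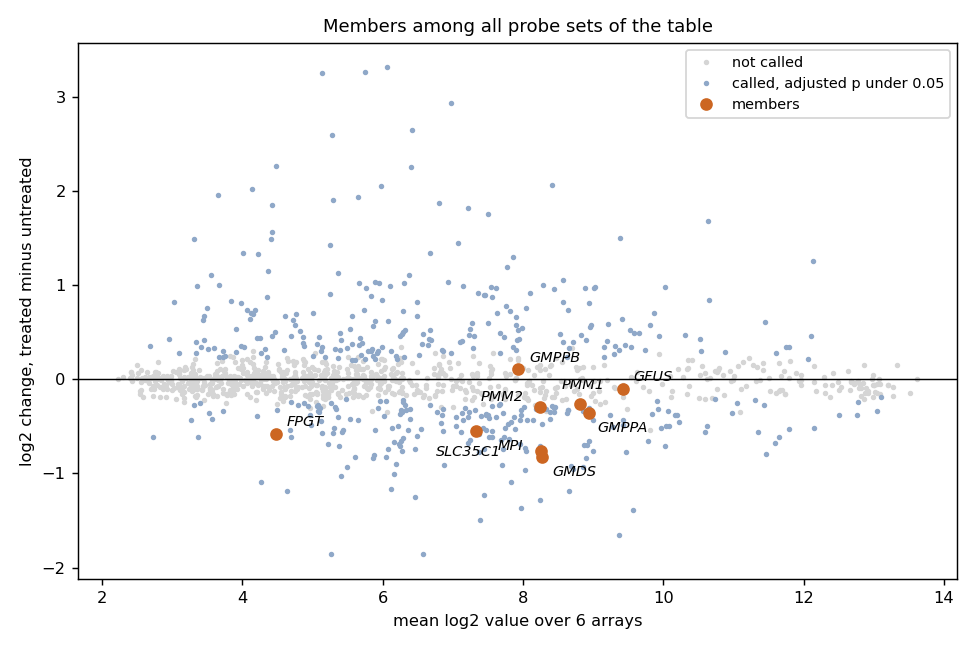
Mean log2 value over the 6 arrays (horizontal axis) against the log2 change, treated minus untreated (vertical axis), for all 1259 probe sets, with the 9 members in orange and other called probe sets in blue. Apart from FPGT at a mean of 4.48 the members lie at 7.32 or above, and MPI and GMDS lie close together at changes of -0.76 and -0.83.

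Among the other named probe sets, the pattern over the 6 arrays most like that of GMDS was that of ARSL, an arylsulfatase, followed by MPI and by IL17D, an interleukin. Likeness was the root mean square difference of the log2 values over the 6 arrays after each probe set was centred on its own mean. It was 0.033 for ARSL, 0.047 for MPI and 0.060 for IL17D. ARSL read 6.30, 6.31 and 6.23 in untreated and 5.47, 5.50 and 5.45 in treated cells. IL17D read 6.71, 6.62 and 6.58 against 5.70, 5.87 and 5.63. All 3 were picked for this likeness. By that choice they shared with GMDS a somewhat lower untreated replicate 3 and a fall of 0.76 to 0.90 on the log2 scale.

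Ahead of MPI, glucose phosphate isomerase (GPI), which makes the fructose phosphate that MPI uses, was 1.48-fold lower. It read 11.73, 11.63 and 11.53 in untreated and 10.997, 10.98 and 11.22 in treated cells (log2 change -0.56 ± 0.09 SE, adjusted p = 0.000508 in limma's test). The hexokinase HK1 was 1.38-fold higher (9.84, 9.69 and 9.59 against 10.08, 10.08 and 10.36, adjusted p = 0.0034). Of 5 genes listed for this step 3 were measured, and HK3 (-0.03) was not called. By gene, 17.6% of the 927 named genes were lower and 19.7% higher, with a median log2 change of -0.0036.

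Of the genes that use GDP-mannose or dolichol-phosphate mannose, 12 of 16 were measured: 6 were lower, 0 higher and 6 not called, with a median log2 change of -0.26. None was higher at an unadjusted p under 0.05 (0 of 12). The 3 of smallest p were DPM3, the small subunit that anchors dolichol-phosphate mannose synthase, the mannosyltransferase ALG9, and PIGB, a mannosyltransferase of glycosylphosphatidylinositol anchors. DPM3 read 10.01, 10.36 and 10.41 in untreated and 8.84, 8.996 and 8.79 in treated cells. PIGB read 8.26, 8.58 and 8.32 against 7.70, 7.71 and 7.56 (1.66-fold lower, log2 change -0.73 ± 0.09 SE, adjusted p = 0.000123 in limma's test). ALG9 was 1.67-fold lower. DPM1, the catalytic subunit of the synthase that DPM3 anchors, read 9.68, 9.93 and 9.79 against 10.25, 10.18 and 9.77 and was not called (adjusted p = 0.123); it was chosen after its values were seen. With array weights, or without treated replicate 3, 1 gene of this list was higher.

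All 13 listed users of GDP-fucose were measured, and 5 were lower, 0 higher and 8 not called, with a median log2 change of -0.16. At an unadjusted p under 0.05 there were 7 lower and 0 higher. FUT2, FUT3 and POFUT3 had the smallest p, at 1.88-fold, 1.43-fold and 1.34-fold lower, the FUT3 value being less certain because its close paralogs FUT5 and FUT6 may share its signal. The others were FUT1 (9.02, 8.81 and 8.56 against 8.40, 8.31 and 8.62, groups that overlap) and the core fucosyltransferase FUT8 (8.23, 8.24 and 8.02 against 7.90, 7.85 and 7.86), both named after their values were seen. Without untreated replicate 1, or without untreated replicate 2, 3 were lower. FUCA1, the lysosomal fucosidase that releases fucose for salvage, went the other way: it read 9.27, 9.47 and 9.27 in untreated and 9.87, 9.90 and 9.71 in treated cells, and was 1.41-fold higher (log2 change 0.49 ± 0.08 SE, adjusted p = 0.000882 in limma's test). It was the only gene of 3 listed for fucose release and turnover that was measured.

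**Figure D4:**
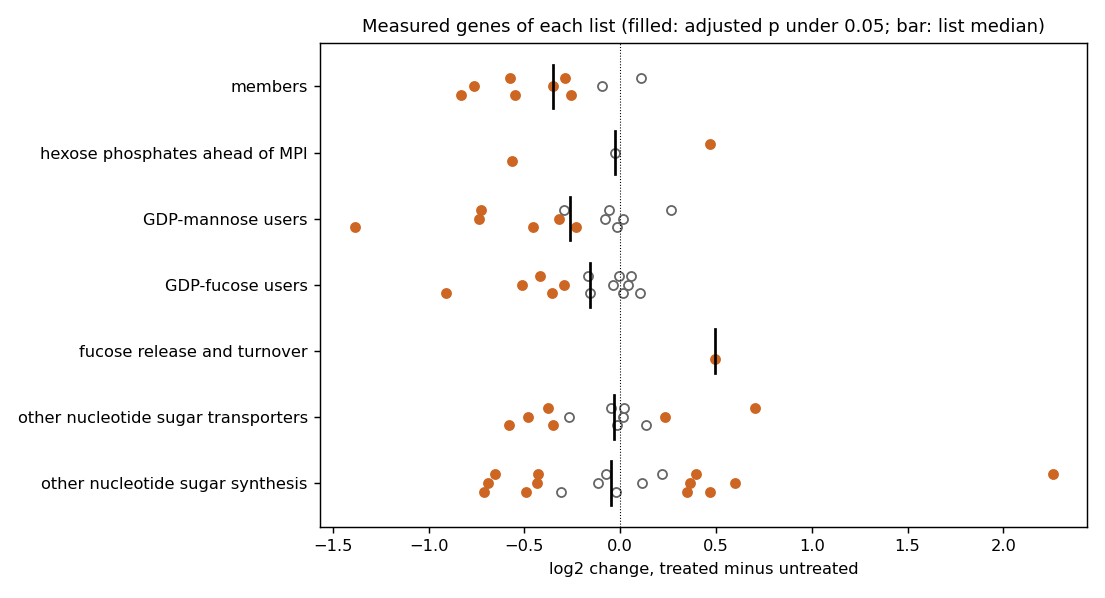
Log2 change (horizontal axis, treated minus untreated) of every measured gene in the supply pathway and in 6 related lists, with filled circles for an adjusted p under 0.05 and a bar at each list's median. The median is -0.35 for the supply genes, -0.26 for GDP-mannose users and -0.16 for GDP-fucose users, and near 0 for other transporters and other nucleotide sugar enzymes.

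Beside SLC35C1, 12 of 13 other nucleotide sugar transporters were measured, of which 4 were lower, 2 higher and 6 not called (median log2 change -0.03). The called ones were SLC35A5 (1.5-fold lower), SLC35B2 (1.4-fold lower), SLC35B3 (1.3-fold lower), SLC35B4 (1.27-fold lower, named after its value was seen), SLC35D3 (1.63-fold higher) and SLC35D2 (1.18-fold higher). SLC35D3 was dim, at a mean of 4.12, and without dim probe sets there was 1 higher. SLC35A2 was not called by the probe set that stood for it, nor by those at means of 8.86 and 7.74. Its dimmest one, at a mean of 5.83, was higher (log2 change 0.30, adjusted p = 0.013 in limma's test). After quantile normalization 2 were lower and 3 higher. Without untreated replicate 2 there were 2 lower, and leaving out any other array except treated replicate 3 left 1 higher. Of 24 other enzymes of nucleotide sugar synthesis 18 were measured, with 6 lower, 6 higher and 6 not called (median log2 change -0.05). The falls of smallest p were those of PGM1, a phosphoglucomutase (10.34, 10.40 and 10.40 against 9.67, 9.63 and 9.70, 1.64-fold lower), GALT, the uridylyltransferase of galactose use (1.62-fold lower), and CMAS, which activates sialic acid (1.57-fold lower). The rises of smallest p were those of GFPT2, an entry enzyme of the hexosamine pathway (4.78-fold higher), UAP1, which makes UDP-GlcNAc (1.38-fold higher), and UXS1, which makes UDP-xylose (1.51-fold higher). GFPT1, the isoenzyme of GFPT2, was brighter (mean 8.57 against 6.41) and 1.32-fold higher (adjusted p = 0.0163 in limma's test). It was named after its value was seen.

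The calls of MPI, GMPPA, GMDS and SLC35C1 held in all 12 alternative fits, and that of FPGT in the 11 that measured it. GMDS ranged from -0.90 to -0.80 and MPI from -0.83 to -0.74 over these fits. Both GMPPB and GFUS were called in 0 of 12.

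**Figure D5:**
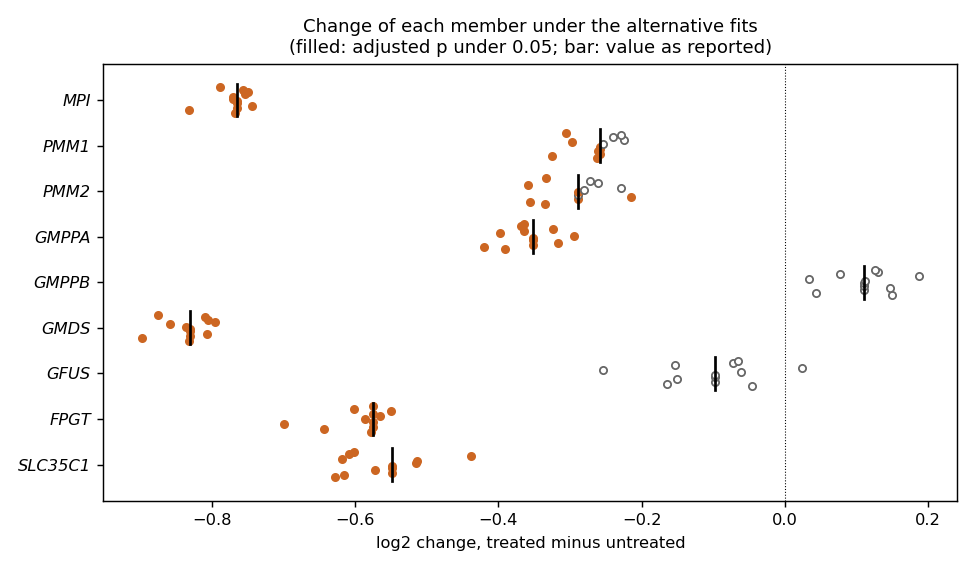
Log2 change (horizontal axis) of each member under each alternative fit (circles, filled for an adjusted p under 0.05), with a bar at the reported value. PMM1 and PMM2 hold both filled and open circles, and GFUS is the only member with circles on both sides of 0.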

How the data were processed

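Biotinylated cRNA was made from total RNA by an Affymetrix protocol, per the labels. The authors deposited log2 values for 1259 probe sets on 6 arrays. RMA, which corrects background, normalizes and summarises probes, was used per the submitters' processing notes. The sources used here state neither its settings nor a platform or build. That values are log2 was read from their range, 2.13 to 13.67. At most 5 values were identical between any pair of arrays, and 0 columns were left unused.

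RefSeq identifiers in probe set names were matched without versions to a gene table (GRCh38.p14), giving 1043 probe sets 1 symbol each (927 genes). For the lists, the probe set with the highest mean stood for a gene. A linear model with 1 treatment term was fitted with limma 3.58.1 in R 4.3.3 (lmFit, eBayes, two-sided, Benjamini-Hochberg over all probe sets), with no filter on dim ones. Errors beside changes are standard errors, and a fold is 2 raised to the log2 change.

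The members, the lists and the rule for named genes (all members, up to 3 called genes per list and direction, and the 3 most like the largest fall) were chosen with earlier results of these data known, and the 3 member pairs after their values were seen. The alternatives were quantile normalization, median centring, leaving out dim probe sets (839 with a mean of at least 4.9 stayed), an intensity trend, array weights, a replicate block, each array left out and other thresholds. The fit was tested on simulated data for treated against untreated over 1259 probe sets: of 100 raised by 0.5 on the log2 scale 100 were called, of 100 lowered by 1 likewise 100, with 6 false calls. Its noise was independent and normal, with variances taken from the fit itself. Changes as small as those of PMM1, PMM2 and GMPPA were not simulated, so the test cannot show how often such changes are called.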

Additional observations from a re-analysis of the deposited data

How the results depend on the processing

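The number of members called lower was 7 as reported and 5 to 7 over the alternatives, and none was called higher in any of them (0). Leaving out one array at a time gave 5 to 7, and a threshold of 0.01 gave 5. The members lost were PMM1 and PMM2, and FPGT where dim probe sets were left out, which left 6. Counting only falls of 1.5-fold or more, an alternative count chosen after seeing the data, gave 2 as reported and 2 to 4 over the alternative fits. The one direction that turned was that of GFUS, which ran from -0.25 (without treated replicate 2) to 0.024 (without treated replicate 3) and was called in neither case. Leaving out untreated replicate 3, which its title calls treated, gave 7. Over all probe sets the calls ranged from 330 to 508 around 438, and over the related lists from 17 to 27 lower and 7 to 12 higher, around 22 and 10. With the replicate number as a block 6 members were lower, PMM2 not among them (adjusted p = 0.0627 in limma's test). Deviations from the group means correlated at -0.274, 0.037 and -0.111 between same-numbered arrays. Of the 6 arrays, 0 correlated best with their own number. The highest correlations were 0.422 (untreated 1 with treated 3), 0.413 (untreated 2 with treated 1) and 0.225 (untreated 3 with treated 2). Such deviations sum to 0 within each group of 3, so they cannot decide whether the arrays were paired. The files give no background level, so how far FPGT lies above it is unknown.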
